A study of Mus musculus with 21 samples.

Results

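8 NPK mouse prostate tumours were compared with NP mouse prostate tumours across all genes. The members were the 16 arrays titled NPK or NP with no month in the label, 8 of each, out of 21 in the series. The other arrays, labelled by month, entered no group mean of NPK or NP. They did enter the normalization, the filter on detection, the choice of probe and the estimate of the spread. With only the 16 arrays, 11898 genes were tested and 3967 called, against 12570 and 4180 with all arrays. The study was set up to compare prostate tumours of these genotypes and stages of disease. The groups are named as the labels name them: NPK is the genotype of the first group and NP that of the other, both are prostate tumours with the anterior prostate as source, and the labels state no age, induction schedule or treatment for these arrays. The comparison is therefore between tumours of different genotypes, not between tumour and normal tissue. The alleles behind the abbreviations are not described here, and no transcript was used to check the genotype labels.

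As background, growing tumours draw on the supply of lipids, nucleotides and proteins, and the genes of these routes are regulated together with growth signalling. The anterior lobe of the mouse prostate lies against the seminal vesicle, and its luminal cells secrete proteins, proteases and protease inhibitors into the seminal fluid. A bulk tumour array reads RNA from cancer cells, stroma, vessels and immune cells together. Fewer cells of a type and less RNA per cell cannot be told apart in such samples.

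Probes detected above the noise numbered 15855 to 18226 on the NPK arrays and 19063 to 20405 on the NP arrays, with no overlap. The limit of detection followed each array's own noise. The noise SD was 22.02 to 26.07 on NPK replicates 1 to 5 and 11.01 to 12.91 on NPK replicates 6 to 8. On the NP arrays it was 11.90 to 17.42. Counts of arrays that detected a gene, given below, therefore rest on unequal limits. NP replicates 4 and 5 were nearly the same array: among 1975 bright genes 0 differed by over 2-fold and the SD of their log2 ratios was 0.12, against 10 genes and 0.23 for NP replicates 1 and 2, the next closest pair. They were averaged and counted as 1 sample, which left 7 NP samples. No chip held both genotypes: NPK lay on 3 chips and NP on the other 2, so counts of list members are also given with the chip as a random block, and what remains of a chip effect cannot be told apart from genotype. The labels do not say that each array is another animal, and the p-values cover only the variation among these tumour samples, which may be technical. Luminal epithelial markers were present in every tumour, with a mean log2 level over 9 markers of 10.10 to 10.56 in NPK and 10.16 to 11.12 in NP, and 2 of the 9, Krt18 and Cdh1, were lower in NPK. The probe for Epcam lay near the noise in both groups, at 4.58 to 6.13 in NPK and 4.61 to 6.5 in NP. Markers of several other cell types moved with genotype, against 15.0% of all genes called higher and 18.2% called lower. All 7 endothelial markers rose in NPK (5 with the chip as a random block), although Kdr was below detection on all of these arrays, and their mean level was 7.96 to 8.89 in NPK and 7.22 to 7.79 in NP. Of 7 smooth muscle markers 6 rose (2 with the block; mean level 8.78 to 12.27 in NPK and 7.65 to 9.56 in NP), and of 7 fibroblast markers 4 rose (4 with the block; 9.59 to 11.81 in NPK and 7.98 to 9.62 in NP). All 4 T and NK cell markers fell (3 with the block), with a mean level of 6.56 to 8.24 in NPK and 7.98 to 10.10 in NP. Of 3 B and plasma cell markers 2 fell (1 with the block; 5.58 to 7.57 in NPK and 6.32 to 8.16 in NP), and of 5 urothelial markers 3 fell (3 with the block) and 1 rose (0 with the block; 8.04 to 9.03 in NPK and 8.61 to 10.39 in NP). The mean level of the seminal vesicle list was 6.18 to 14.60 in NPK and 4.97 to 7.37 in NP, highest in NPK replicates 3, 1, 5 and 6. Of 9 skeletal muscle markers 1 rose and 0 fell (0 and 0 with the block). Their mean level was 5.48 to 9.18 in NPK and 5.60 to 7.11 in NP. It was highest in NPK replicates 4, 5 and 3, at 9.18, 8.52 and 7.58. Of 11 immediate early genes, which respond within minutes to stimulation and to tissue handling, 9 rose and Jun fell (6 and 1 with the block); their mean level was 9.79 to 10.63 in NPK and 9.12 to 9.87 in NP. The part of these cells and of handling in the results below was not tested, except where values without the 4 arrays rich in seminal vesicle transcripts are given.

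Out of 12570 genes tested with limma, 4180 (33.3%) passed an adjusted p under 0.05. Of these, 1888 (15.0%) were higher in NPK and 2292 (18.2%) were lower. A random chip term left 2361 genes (18.8%), 991 higher (7.88%) and 1370 lower (10.9%), all of them among the 4180. A complete separation of the 8 NPK arrays from the 7 NP samples was seen for 361 genes higher in NPK (2.87%) and 648 lower (5.16%). When arrays were scaled to a common median instead of a common distribution, the median difference of all genes moved to -0.38 on the log2 scale, against -0.01, and the split became 763 higher (6.07%) and 5498 lower (43.7%). Small changes in either direction therefore depend on the scaling, and each list below is read against the median of all genes.

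Each gene was represented by its brightest probe, and the other probes of a gene gave a check that the test did not use. Of 836 genes called higher that had another detected probe, 542 (64.8%) had every other probe on the same side of 0; of 809 called lower, 499 (61.7%) did. Among changes of 2-fold or more the shares were 82.9% of 222 genes higher in NPK and 67.7% of 195 lower. Among calls kept with the chip block they were 69.3% of 440 genes higher and 60.1% of 459 lower. The same share over all genes is not given here, so these shares have no background beside them. Genes whose probes disagree are marked as such below. A probe reads one stretch of a transcript, so probes in different isoforms or at different distances from the end of the transcript can differ.

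**Figure D1:**
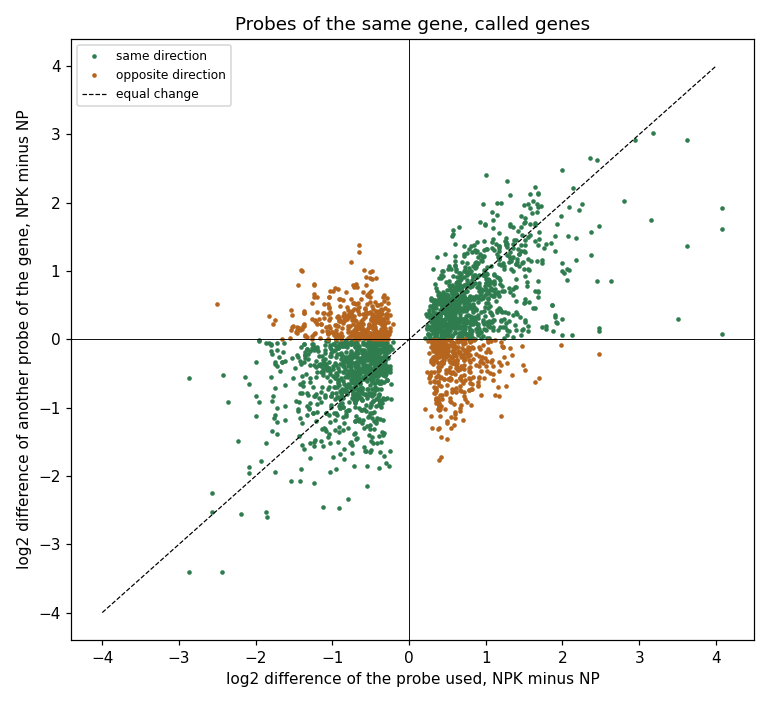
Each point is a detected second probe of a gene called in NPK against NP. The horizontal axis is the log2 difference of the probe that stood for the gene and the vertical axis that of the other probe; points at upper right and lower left have the same direction, and for 1041 of 1645 genes every other probe had the direction of the probe used.

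The largest changes were taken among genes detected in the higher group, called with and without the chip block, and with probes agreeing in sign. The 10 largest rises so chosen were led by Svs5, Svs4, Fn1, Cpxm1 and Col1a1, and then by Fcna, Acsm3, Col10a1, Dmbt1 and Trim15. Fcna, which encodes the secreted lectin ficolin A, had a log2 intensity of 8.13, 9.98 and 10.62 (lowest, median, highest) in NPK and 4.96, 5.50 and 6.86 in NP. The groups did not overlap, and the fitted difference was 3.83 ± 0.35 (SE), 14.3-fold higher (adjusted p = 2.03e-06). Acsm3, a mitochondrial acyl-CoA synthetase for medium-chain fatty acids, had 9.05, 10.13 and 10.97 in NPK against 5.11, 6.01 and 7.91 in NP. It was 12.3-fold higher (3.62 ± 0.42, adjusted p = 1.03e-05). Its other probes had 2.92 and 1.36, but their direction was a condition for naming the gene here and is no check. Trim15, a RING-finger ubiquitin ligase, had 8.08, 9.07 and 11.58 in NPK and 5.17, 6.20 and 6.59 in NP, and was 9.69-fold higher (3.28 ± 0.43, adjusted p = 2.9e-05). Col10a1, a short-chain collagen best known from growth plate cartilage, was detected on 6 of 8 NPK arrays and 0 of 8 NP arrays, at least 5.79-fold higher (adjusted p = 0.00019). NPK replicates held it at 5.50 to 9.40, and NP samples at 4.56 to 4.92.

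Dmbt1, a secreted scavenger receptor of mucosal surfaces, overlapped between groups, with 10.29, 12.09 and 14.42 in NPK and 6.88, 7.83 and 12.98 in NP. The high NP value was that of replicate 6, whose level exceeded 7 of the 8 NPK arrays. The difference was 3.29 ± 0.87 (adjusted p = 0.00725), but without the 4 NPK arrays richest in seminal vesicle transcripts it missed the threshold (adjusted p = 0.0588) at a difference of 3.00, close to that over all arrays. Svs5 and Svs4, seminal vesicle secretory proteins, headed the list of rises at 5.69 ± 1.12 and 5.29 ± 1.17. NPK replicates 1, 3 and 5 held Svs4 at 15.68 to 15.80, at the top of the scale, where differences are compressed. Those 4 arrays were picked by the mean of a list that holds both genes, so leaving them out had to lower these differences; they were then 3.26 for Svs4 (adjusted p = 0.0821) and 3.55 for Svs5 (adjusted p = 0.0379).

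The 10 largest falls, chosen in the same way, ran from Scgb1c1 to H2-Aa. Scgb1c1, a small secretoglobin, had 4.54, 4.74 and 5.90 in NPK, where 1 of 8 arrays detected it, against 7.72, 9.07 and 10.78 in NP; it was at least 8.8-fold lower (adjusted p = 3.53e-06). Ugt2b34, a UDP-glucuronosyltransferase of steroid and drug conjugation, had 4.98, 5.45 and 6.89 in NPK against 8.07, 8.48 and 9.85 in NP, at least 5.9-fold lower (adjusted p = 5.81e-06). Cdhr1, a cadherin-related protein best known from photoreceptors, had 4.77, 6.12 and 7.40 in NPK and 7.69, 8.93 and 10.36 in NP, 7.89-fold lower (adjusted p = 8.13e-05). None of these groups overlapped. Dapl1, a death-associated protein homologue, was 7.58-fold lower (-2.92 ± 0.47, adjusted p = 0.000171), with 5.12, 7.14 and 8.52 in NPK and 8.96, 9.90 and 11.30 in NP. H2-Aa, the alpha chain of an MHC class II molecule, had 6.03, 9.88 and 10.57 in NPK and 11.39, 12.14 and 12.90 in NP, 7.5-fold lower (adjusted p = 0.000474). T, NK and B cell markers fell as given above. Of 6 macrophage markers 1 rose and 2 fell (1 and 1 with the block), with a median difference of -0.10. Which cells the fall of H2-Aa came from was not tested. Cxcl13, Pkd2l1, Fam25c, Cstdc5 and Upk3a completed the 10 largest falls, at fitted differences of -4.01 to -3.05. Upk3a, a uroplakin of the bladder lining, is one of the urothelial markers counted above.

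**Figure D2:**
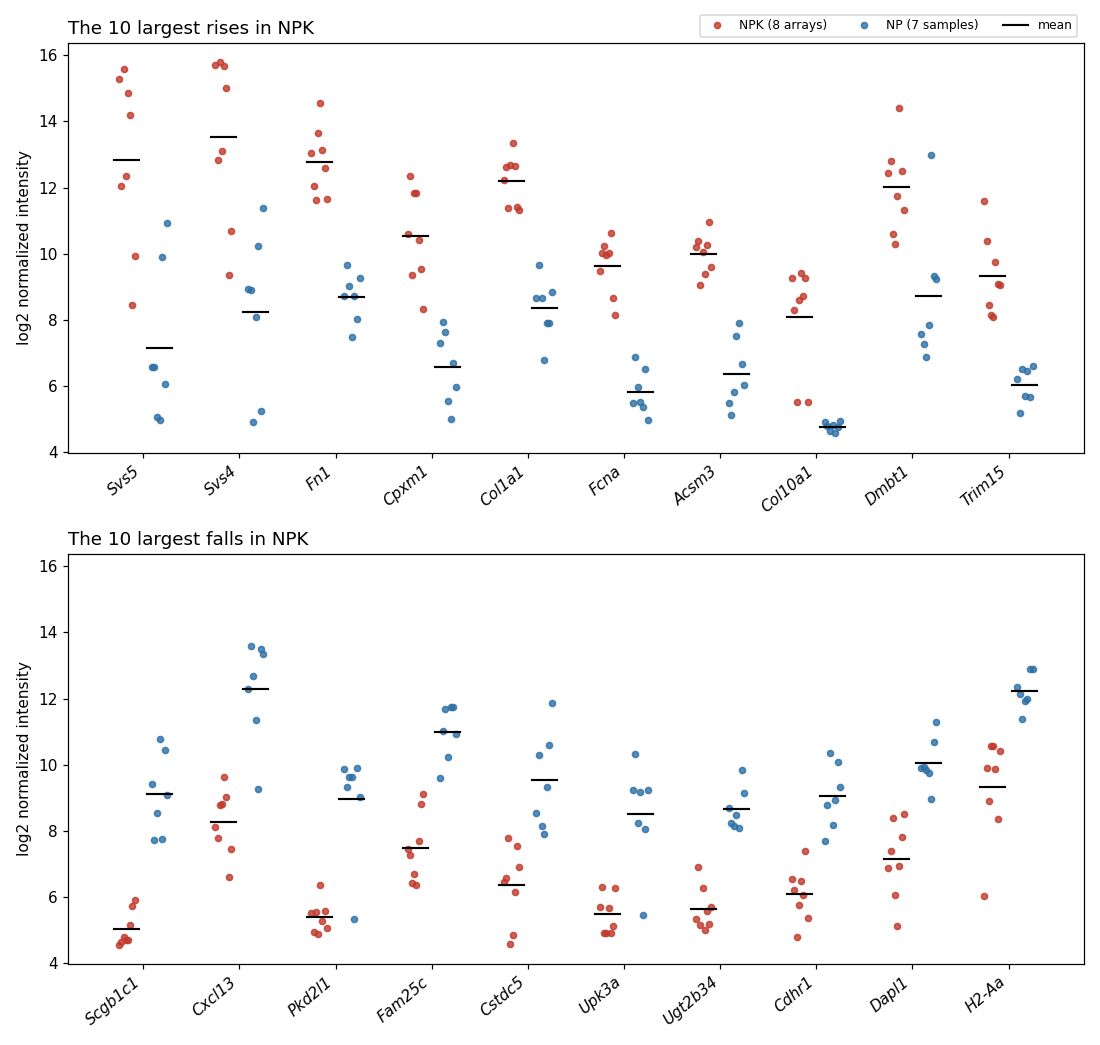
Log2 normalized intensity of the 10 largest rises (upper panel) and falls (lower panel). They were chosen by the size of the fitted difference among genes called with and without the chip block whose probes agreed in sign. Each point is an NPK array (red, left) or an NP sample (blue, right), and the black line is the group mean. Svs5, Svs4 and Dmbt1 overlap between the groups, as do Cxcl13, Pkd2l1 and Upk3a; the other 14 genes do not.

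Among the metabolic lists with at least 10 tested genes, sterol and fatty acid synthesis had the largest share of called members. Of 17 tested members, 11 (64.7%) rose in NPK, 3 fell and 3 did not pass, against 15.0% of all genes higher; the median difference was 0.76. With the chip block 8 rose and 2 fell. Without the 4 NPK arrays richest in seminal vesicle transcripts 11 rose and 2 fell, and on the median scale, where all genes centred on -0.38, 8 rose and 5 fell. Cells make sterols from acetyl-CoA by way of mevalonate, farnesyl diphosphate, squalene and lanosterol, and the transcription factor SREBP2, encoded by Srebf2, raises the genes of this route when membranes are short of sterol. The promoters of Cyp51, Mvd and Srebf2 are shown because these genes span that route and its regulator. They are the 250 bases before the annotated start in RefSeq (GRCm38.p6), written 5′ to 3′ on the strand of the gene, at chr5:4104698-4104947 (minus strand), chr8:122443423-122443672 (minus strand) and chr15:82147019-82147268 (plus strand), with matches to CCAAT, or ATTGG where the match is on the opposite strand, in capitals.
Cyp51: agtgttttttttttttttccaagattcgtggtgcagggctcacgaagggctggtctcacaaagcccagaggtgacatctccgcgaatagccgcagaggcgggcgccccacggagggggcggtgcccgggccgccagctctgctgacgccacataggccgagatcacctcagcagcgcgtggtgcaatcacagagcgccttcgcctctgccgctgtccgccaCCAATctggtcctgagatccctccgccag
Mvd: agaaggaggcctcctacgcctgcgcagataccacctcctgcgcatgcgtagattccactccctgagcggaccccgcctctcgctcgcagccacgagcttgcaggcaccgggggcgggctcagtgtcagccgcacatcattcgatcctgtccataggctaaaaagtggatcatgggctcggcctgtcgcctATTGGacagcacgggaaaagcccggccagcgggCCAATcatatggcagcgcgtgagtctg
Srebf2: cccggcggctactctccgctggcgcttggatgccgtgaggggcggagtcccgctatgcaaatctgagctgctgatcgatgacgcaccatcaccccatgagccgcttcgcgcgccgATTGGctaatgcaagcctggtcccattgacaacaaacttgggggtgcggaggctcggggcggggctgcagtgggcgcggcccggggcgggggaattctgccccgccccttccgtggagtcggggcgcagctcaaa

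CCAAT, the core of the binding site of the factor NF-Y, was searched on both strands, with no overlap with the other motif searched. It was present in 14 of 21 promoters of 16 listed genes that the table held (66.7%), in 7 of 11 promoters of the 9 genes that rose (63.6%), and in 33.8% of all 32851 mouse promoters. The motif TCACNCCAC, a form of the sterol regulatory element, was found in 1 of the 21 promoters, in 0 of the 11 and in 1.05% of all. These matches describe letters in the windows and say nothing of binding in these tumours.

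Along the route, Mvk, which phosphorylates mevalonate, was higher by 0.76. Mvd, the decarboxylase that ends the mevalonate steps, had 7.42, 8.33 and 9.22 in NPK against 6.39, 6.93 and 7.25 in NP, without overlap, and was 2.98-fold higher (1.58 ± 0.26, adjusted p = 0.000202). Fdps, farnesyl diphosphate synthase, had 9.70, 10.23 and 11.16 in NPK and 7.80, 8.57 and 9.71 in NP, overlapping at a single pair of samples, and was 2.83-fold higher (adjusted p = 0.000483). Squalene epoxidase, the rate-limiting oxygenation encoded by Sqle, had 10.41, 10.90 and 11.52 in NPK and 8.82, 9.35 and 10.24 in NP. The Sqle groups were separate, at 3.02-fold higher (adjusted p = 2.23e-05), and its second probe rose by 1.85. Lanosterol demethylase, Cyp51, had 9.98, 10.31 and 10.65 in NPK against 8.16, 8.80 and 9.56 in NP and was 2.81-fold higher (adjusted p = 1.73e-05). Srebf2 had 7.94, 9.30 and 9.63 in NPK and 6.74, 8.00 and 8.13 in NP. NPK replicate 8 was the low array and the sole overlap, the fold was 2.84 (adjusted p = 0.00019), and the second probe was higher by 0.93. Lss and Insig1, which encode lanosterol synthase and the protein that holds SREBP in the endoplasmic reticulum, also passed, at 1.01 and 1.22, but each had another probe of opposite direction. Srebf1, which encodes the related factor of fatty acid synthesis, had a difference of 0.06 and did not pass.

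3 members fell. Scd1, stearoyl-CoA desaturase, had 9.78, 10.18 and 10.84 in NPK and 11.16, 11.74 and 13.02 in NP, without overlap, 3.44-fold lower (-1.78 ± 0.26, adjusted p = 8.17e-05). Fasn, fatty acid synthase, was lower by a fitted -0.54, but its probe was detected on 0 of 8 NPK arrays and 4 of 8 NP arrays and its call was lost with the chip block (adjusted p = 0.127). Sc5d, a late sterol desaturase, was 1.69-fold lower (adjusted p = 0.00468), with 5.96 to 7.40 in NPK and 6.75 to 7.58 in NP. Other fatty acid genes went the other way: Elovl6, a fatty acid elongase, and Acly, which supplies acetyl-CoA, were higher by 0.81 and 0.36, and neither kept its call with the block.

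Oxidative metabolism ran lower in part. Of 18 genes of mitochondrial fatty acid oxidation 0 rose and 8 fell (44.4%, against 18.2% of all genes), with a median of -0.19; 3 fell with the chip block and 4 without the 4 arrays rich in seminal vesicle transcripts. Hadhb, the beta subunit of the trifunctional protein, had 9.29, 9.42 and 9.52 in NPK and 10.53, 10.95 and 11.23 in NP. The groups lay more than 1 log2 unit apart, at 2.86-fold lower (-1.51 ± 0.11, adjusted p = 2.55e-07). The other subunit of the same complex, Hadha, had a difference of -0.02 and did not pass. Eci2, an enoyl-CoA isomerase, was 1.48-fold lower (adjusted p = 0.000282), with 9.03, 9.20 and 9.44 in NPK and 9.54, 9.78 and 10.11 in NP.

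In the citric acid cycle 1 of 19 genes rose and 6 fell (31.6%, against 18.2% of all genes), and 0 and 4 did so with the block. Idh2, the mitochondrial NADP-linked isocitrate dehydrogenase, had 8.70, 9.02 and 9.45 in NPK and 10.00, 10.79 and 11.01 in NP, 2.98-fold lower without overlap (adjusted p = 9.43e-06). Sdhd, the membrane anchor of succinate dehydrogenase, was 2.97-fold lower (adjusted p = 0.000475), with 5.20, 6.36 and 7.16 in NPK and 6.94, 7.89 and 8.55 in NP. Dld, the lipoamide dehydrogenase shared by several complexes, was at least 1.99-fold lower and was detected on 2 of 8 NPK arrays. Suclg1 fell by 0.51 while its second probe had 0.05. The respiratory chain and ATP synthase list stood near the background, with 7 of 68 higher (10.3%), 13 lower (19.1%) and a median of 0.01; 2 and 10 passed with the block. Its largest fall was in Ndufb2, a complex I subunit, with 5.90, 6.34 and 6.95 in NPK and 7.14, 7.86 and 8.72 in NP (3.19-fold lower, adjusted p = 3.71e-05). Atp5a1 fell by 1.44 on the probe used, and its other probe had 0.17. Glycolysis showed 1 rise, of the phosphofructokinase Pfkp (2.02-fold, adjusted p = 0.00271), and 1 fall, of the aldolase Aldoc (2.24-fold lower, adjusted p = 0.000686), among 17 genes, both also with the block, and none of 5 pentose phosphate genes passed.

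Some genes of folate, nucleotide and polyamine metabolism rose without overlap, as did 2.87% of all genes tested. Mthfd2, the mitochondrial folate-cycle dehydrogenase common in proliferating cells, had 9.13, 9.68 and 10.70 in NPK and 7.26, 7.93 and 8.74 in NP. It was 3.44-fold higher without overlap (1.78 ± 0.26, adjusted p = 6.84e-05), and its second probe rose by 1.39. Ctps, CTP synthase, had 11.36, 11.61 and 12.00 in NPK and 10.11, 10.45 and 11.24 in NP, 2.26-fold higher (adjusted p = 2.42e-05), with other probes at 1.29 and 1.56. Smox, the spermine oxidase of polyamine catabolism, had 11.76, 12.32 and 12.87 in NPK against 10.46, 11.18 and 11.38 in NP, 2.49-fold higher (adjusted p = 1.79e-05), and its 4 other probes rose by 1.19 to 2.12. All 4 tested polyamine genes rose, but Srm, Oaz2 and Odc1 overlapped between groups. Srm, Oaz2 and Odc1 also lost their calls with the chip block (adjusted p of 0.0711, 0.0885 and 0.102). Their differences were 0.73, 0.56 and 0.41 with it, against 0.83, 0.58 and 0.41 without it. In the serine and folate list 3 of 11 rose (27.3%, against 15.0% of all genes) and 0 fell (2 and 0 with the block). In nucleotide synthesis 7 of 22 rose (31.8%) and 5 fell (22.7%, against 18.2% of all genes), and 5 and 3 did so with the block. Rrm1, the large subunit of ribonucleotide reductase, was 1.73-fold higher (adjusted p = 0.000273) with 9.11 to 10.04 in NPK and 8.61 to 8.80 in NP. Tk1, thymidine kinase, rose by 1.17 while another probe had -0.46. Prps1 and Prps2, which make the ribose donor of all nucleotides, fell by 0.89 and 0.95. Of 12 genes of glutamine and amino acid supply 2 rose, the proline synthesis enzyme Aldh18a1 and the cystine importer Slc7a11, and neither kept its call with the block (adjusted p of 0.164 and 0.0887).

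Among redox and zinc genes both directions were near background, with 7 higher and 6 lower of 35 glutathione and detoxification genes and 4 and 4 of 22 zinc transporters and metallothioneins. With the block 4 and 4 of the glutathione genes passed and 2 and 3 of the zinc genes. Gpx3, the glutathione peroxidase of extracellular fluid, was the largest rise, with 12.46, 13.58 and 14.96 in NPK and 10.15, 11.59 and 12.18 in NP (4.26-fold higher, adjusted p = 0.000482). Prostate epithelium is known for its high zinc. Slc39a1, the importer ZIP1, was at least 2.02-fold lower (adjusted p = 0.000159), at 4.92 to 6.51 in NPK, where 2 of 8 arrays detected it, and 6.69 to 7.56 in NP. Slc30a6, a zinc transporter of the Golgi, was 1.91-fold lower (adjusted p = 2.81e-05).

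**Figure D3:**
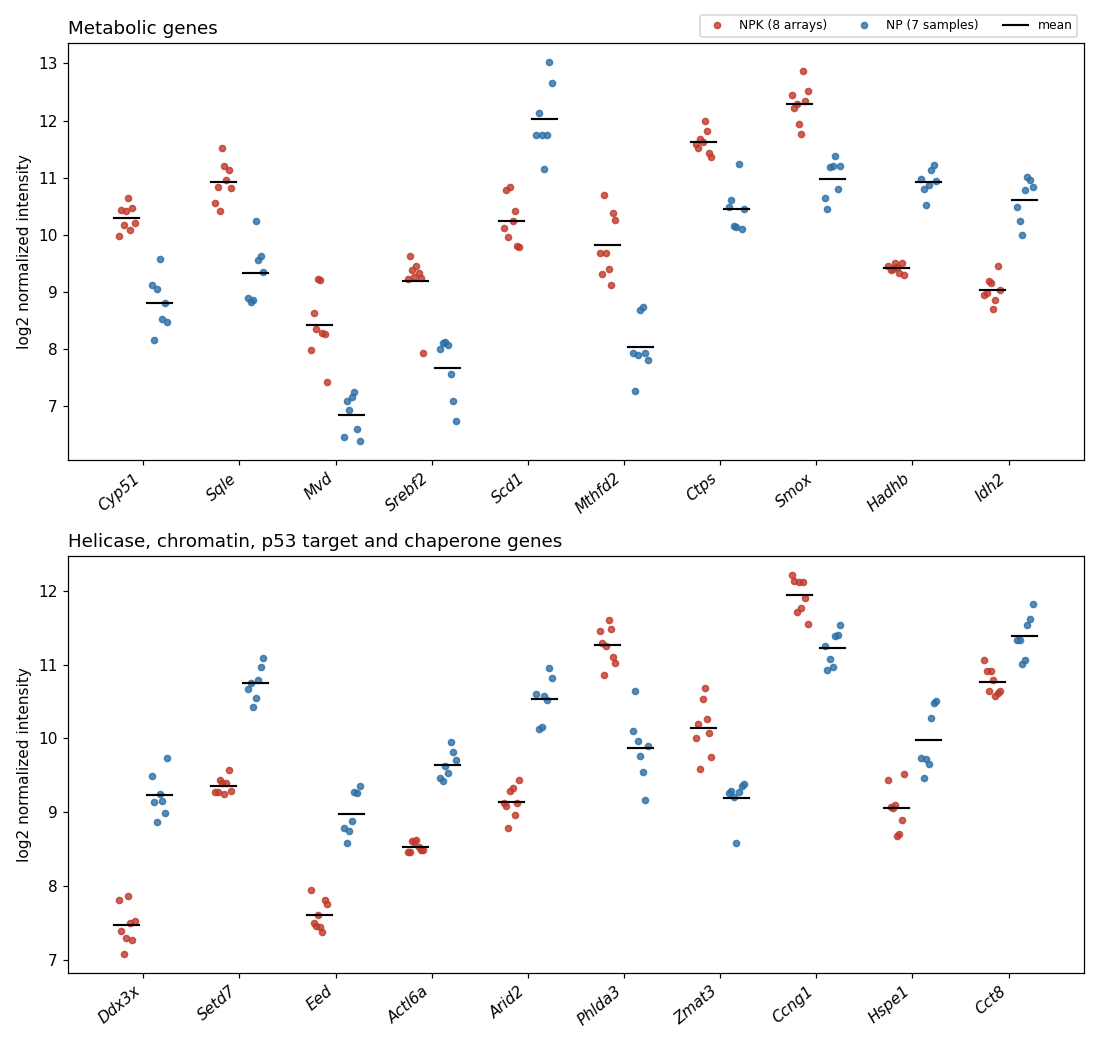
Log2 normalized intensity of 10 metabolic genes (upper panel) and 10 helicase, chromatin, p53 target and chaperone genes (lower panel); each point is an NPK array (red, left) or an NP sample (blue, right) and the black line is the group mean. Genes were picked for the text; Srebf2, Hspe1 and Cct8 overlap between groups and the other 17 do not.

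Chromatin lists held called members in both directions. Of 27 remodelling genes 1 rose and 7 fell (25.9%, against 18.2% of all genes), and 6 fell with the block. Actl6a, an actin-related subunit of the BAF and INO80 remodellers, had 8.46, 8.51 and 8.62 in NPK and 9.42, 9.62 and 9.95 in NP. The NPK values spanned 0.16 log2 units, the groups were separate and the gene was 2.17-fold lower (-1.12 ± 0.11, adjusted p = 4.34e-06); another probe fell by 0.35. Arid2, the subunit that defines PBAF, had 8.79, 9.13 and 9.43 in NPK and 10.13, 10.58 and 10.95 in NP, 2.63-fold lower (adjusted p = 6.19e-06). Chd1l, a remodeller recruited by poly-ADP-ribose, was at least 2.36-fold lower (adjusted p = 2.03e-06), detected on 1 of 8 NPK arrays and 8 of 8 NP arrays. Smarca5, the ISWI motor, fell close to the noise, at 4.62 to 5.10 in NPK and 5.78 to 6.37 in NP. Ino80 was the 1 rise and lost its call with the block (adjusted p = 0.0665).

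In the Polycomb list 3 of 20 fell and 1 rose (2 and 1 with the block). These shares, 15.0% and 5.0%, lay below the 18.2% of all genes called lower and the 15.0% called higher. Eed, the core PRC2 subunit that reads H3K27 methylation, had 7.37, 7.55 and 7.95 in NPK and 8.58, 8.88 and 9.36 in NP, 2.59-fold lower (adjusted p = 6.19e-06), while another probe had -0.07. Aebp2, a PRC2 cofactor, was 1.4-fold higher with all 4 other probes on the same side. Rbbp4, a histone-binding subunit shared by several complexes, fell by 1.26 on the probe used and had 0.05 and 0.01 on others. Among 28 histone methyltransferases 7 rose (25.0%) and 4 fell (14.3%), and 2 and 2 did so with the block. With the block 7.88% of all genes were higher and 10.9% lower. Setd7, a lysine methyltransferase, had 9.25, 9.34 and 9.56 in NPK and 10.43, 10.75 and 11.09 in NP, 2.62-fold lower (-1.39 ± 0.12, adjusted p = 1.52e-06). Dot1l, the H3K79 methyltransferase, was 1.44-fold higher (adjusted p = 0.00859), and was one of the rises kept with the block.

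Of 31 histone acetylation genes 9 fell (29.0%) and 3 rose; with the block 6 fell and 0 rose. Hdac3, a class I deacetylase, had 10.79, 10.96 and 11.14 in NPK and 11.18, 11.48 and 11.57 in NP, 1.4-fold lower (adjusted p = 0.000301). Hdac2 fell by 0.72 with a second probe at 0.01. Sirt4, which acts in mitochondria and not on histones, was 2.48-fold lower (adjusted p = 2.87e-05), with 7.38, 7.97 and 8.63 in NPK and 8.97, 9.23 and 9.55 in NP. Of 19 histone demethylases 5 fell (26.3%) and 2 rose, against 18.2% and 15.0% of all genes, and with the block 2 fell and 0 rose. Kdm5d, encoded on the Y chromosome, was 2.26-fold lower (adjusted p = 0.00143), with 5.07 to 7.09 in NPK and 6.94 to 7.97 in NP, and Eif2s3y, a Y-linked translation factor gene, was 3.9-fold lower (adjusted p = 0.000602) while its other probe had a difference of 0.00. In the DNA methylation list 4 of 11 rose (36.4%, against 15.0% of all genes) and 0 fell, and 3 and 0 did so with the block. Among the rises was Tdg, thymine DNA glycosylase (2.00-fold, adjusted p = 0.00703); Dnmt1 and Dnmt3b, at -0.28 and -0.01, did not pass. Both large subunits of the replication-coupled histone chaperone CAF-1 rose, Chaf1a by 0.78 (adjusted p = 0.000341) and Chaf1b by 0.61 (adjusted p = 0.00616), among 3 rises and 2 falls in 21 histone chaperone and HMG genes (2 and 1 with the block).

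RNA helicases unwind or clamp RNA during transcription, splicing, export, ribosome assembly and translation. Of 43 tested DEAD-box and DEAH-box genes, 4 rose (9.3%) and 8 fell (18.6%), shares near those of all genes, with a median of -0.11; 2 and 3 passed with the block. The list as a whole thus did not stand out, and a few members did. Ddx3x, an X-linked helicase of translation initiation, had 7.08, 7.44 and 7.86 in NPK and 8.87, 9.15 and 9.73 in NP. It was 3.4-fold lower without overlap (-1.76 ± 0.16, adjusted p = 2.03e-06), its other probe fell by 1.16, and without the 4 arrays rich in seminal vesicle transcripts the difference was -1.86. Dhx36, which resolves G-quadruplexes, had 8.93, 9.43 and 9.65 in NPK and 9.72, 9.99 and 10.27 in NP, 1.5-fold lower (adjusted p = 0.00106). Ddx21, a nucleolar helicase of rRNA synthesis, fell by 1.41 on the probe used (8.27 to 8.92 in NPK, 9.64 to 10.65 in NP) and had 1.01 on another, so its direction is unsettled. Ddx49 had 8.86, 9.22 and 10.11 in NPK and 8.28, 8.45 and 8.76 in NP, 1.83-fold higher (adjusted p = 0.00146), with its other probe higher by 0.44. Ddx28, a mitochondrial helicase of ribosome assembly, was 1.38-fold higher (adjusted p = 0.00136) and had -0.01 with median scaling, where all genes centred on -0.38.

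**Figure D4:**
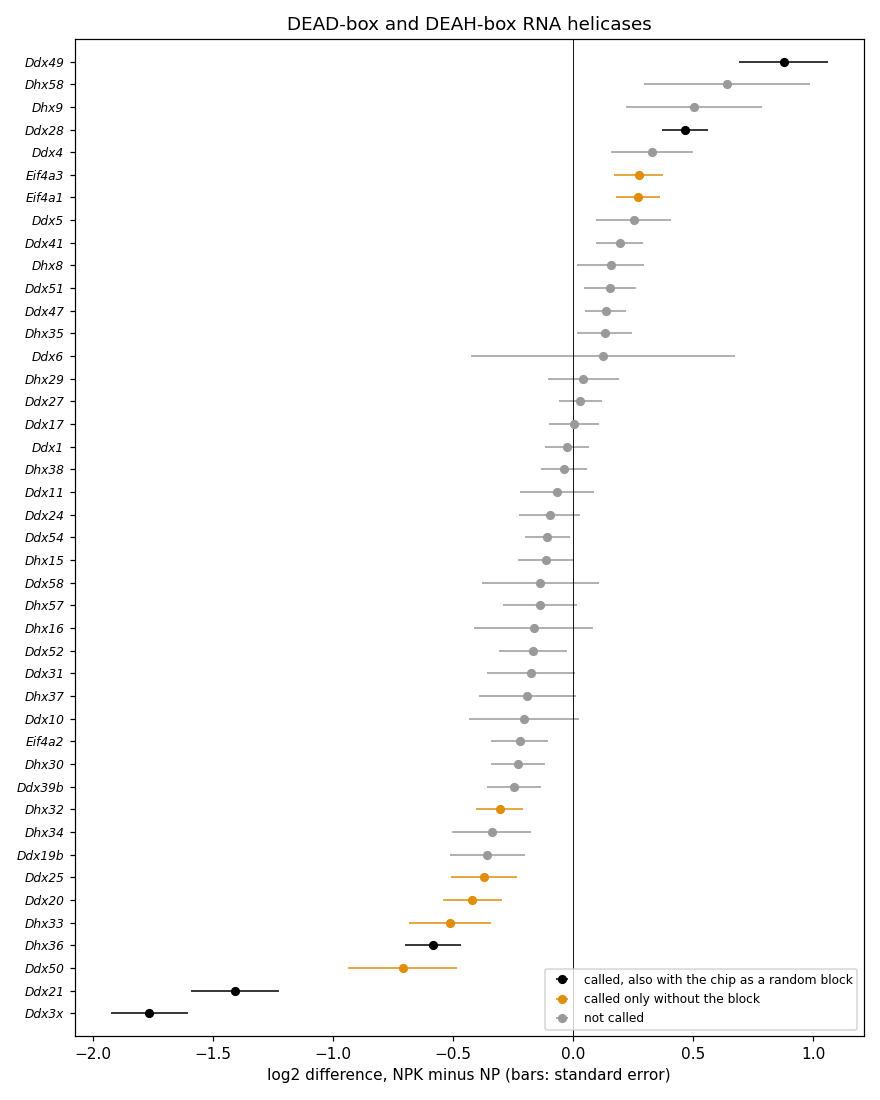
Fitted log2 difference, NPK minus NP, with its standard error for the 43 tested DEAD-box and DEAH-box helicases, ordered by size; black points passed with and without the chip as a random block, orange points passed only without it, and grey points did not pass. Ddx3x at -1.76 and Ddx49 at 0.88 are the ends of the range.

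Of 11 other RNA helicases 3 fell (27.3%, against 18.2% of all genes), 0 rose, and the same counts held with the block. Snrnp200, a U5 helicase of the spliceosome, had 8.20, 8.59 and 8.75 in NPK and 8.94, 9.07 and 9.58 in NP, 1.59-fold lower (adjusted p = 0.000478). Skiv2l, the helicase of the cytoplasmic exosome, and Aqr, of the spliceosome, fell by 0.86 and 1.03, each with another probe of opposite direction. Among 58 splicing factors 5 rose and 13 fell (22.4%), and 3 and 6 with the block; Srsf3, an SR protein, was 1.73-fold lower (adjusted p = 0.000434) and its second probe fell by 0.66.

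Ribosome genes held more falls than rises, at list medians near 0. Of all genes 18.2% were called lower, and 10.9% with the block. Of 55 ribosomal proteins 1 rose and 14 fell (25.5%), with a median of -0.04, and 1 and 9 did so with the block; because these genes have many near-identical processed copies, their probes are uncertain. Rpl7a had 10.33, 10.92 and 11.09 in NPK and 11.46, 11.78 and 12.18 in NP, 1.99-fold lower (adjusted p = 7.01e-05). The 1 rise was Rps27l, a ribosomal protein paralogue known as a p53 target, with 14.53, 14.73 and 14.95 in NPK and 13.93, 14.14 and 14.49 in NP, 1.46-fold higher (adjusted p = 0.000653). Among 30 ribosome biogenesis genes 3 rose and 8 fell (26.7%), with a median of 0.03, and 2 and 7 with the block. Polr1c, a subunit shared by RNA polymerases I and III, had 8.58, 8.79 and 9.24 in NPK and 9.41, 9.79 and 10.35 in NP, 2.16-fold lower (adjusted p = 0.000233). Wdr43 was 1.4-fold higher (adjusted p = 0.000278) on the scale used and had -0.00 with median scaling, again against a centre of -0.38. Translation factors were near background, with 7 higher and 10 lower of 54 (2 and 5 with the block). Eif3k, a subunit of the eIF3 complex, was 2.79-fold lower (adjusted p = 1.52e-05), with 8.96 to 9.64 in NPK and 10.12 to 11.19 in NP, and its other probe fell by 0.42. Eif3b, the scaffold of the same complex, was 1.46-fold higher (adjusted p = 0.000712). Of 18 aminoacyl-tRNA synthetases 2 rose and 1 fell (1 and 1 with the block).

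Secretory genes held some of the widest ranges between tumours. All 8 seminal vesicle genes had positive differences and 5 rose (62.5%, against 15.0% of all genes), with a median of 3.42. With the block 2 rose, against 7.88% of all genes. Without the 4 NPK arrays that were picked for this list's mean the median was 0.74, a fall that the choice of arrays fixes. Spink1, a trypsin inhibitor also made by the seminal vesicle, had 7.65, 10.02 and 15.43 in NPK and 5.61, 7.73 and 10.62 in NP. Its values above 14 were those of NPK replicates 1 and 3, which also had the highest seminal vesicle means; it was higher by 3.00 ± 1.07 (adjusted p = 0.0372) and by 0.94 without the 4 arrays (adjusted p = 0.439). Of 13 prostate secretory proteins 2 rose and 2 fell (0 and 1 with the block). Each direction made up 15.4%, against 15.0% of all genes higher and 18.2% lower. Pnliprp1, a pancreatic lipase relative, was at least 3.2-fold lower (adjusted p = 0.000128), detected on 0 of 8 NPK arrays and 7 of 8 NP arrays. Klk1, a tissue kallikrein, was at least 3.03-fold lower, with 4.68, 5.20 and 7.48 in NPK and 5.33, 7.99 and 10.38 in NP, and lost its call with the block (adjusted p = 0.0768).

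Secretoglobins, lipocalins and mucins rose in 6 of 20 tested genes (30.0%) and fell in 1 (5.0%), and 5 and 1 did so with the block. Of all genes 15.0% were higher and 18.2% lower, and 7.88% and 10.9% with the block. Obp2a, an odorant-binding lipocalin, had 6.86, 8.25 and 10.24 in NPK and 4.71, 5.01 and 5.86 in NP. It was at least 6.24-fold higher (adjusted p = 0.000238). Of the 4 arrays richest in seminal vesicle transcripts, NPK replicates 1 and 3 had 6.86 and 7.53, and replicates 5 and 6 had 8.63 and 8.79. The highest value, 10.24, was that of replicate 4. Muc4, a membrane mucin, was detected on 7 of 8 NPK arrays and 0 of 8 NP arrays, at least 2.12-fold higher (adjusted p = 0.000625). Lcn6 and Lcn8, lipocalins best known from the epididymis, were at least 1.69-fold and 1.62-fold higher. Of 50 listed members 20 passed the filter on detection. The filter asked for detection on at least 3 arrays, so a gene detected in 1 group alone could pass it.

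Among 52 listed protease inhibitors, not all of them secreted, 12 rose (23.1%) and 11 fell (21.2%), and 8 and 6 with the block. This and the next 2 lists are to be read against 15.0% of all genes higher and 18.2% lower. With the block the shares of all genes were 7.88% and 10.9%. Timp1, the metalloproteinase inhibitor, had 11.18, 12.74 and 13.49 in NPK and 9.68, 10.08 and 12.09 in NP, 4.39-fold higher (adjusted p = 0.00041), with its second probe higher by 2.21; the sole high NP value was replicate 6. Serpina3n, an acute-phase serpin, had 11.71, 13.41 and 14.60 in NPK and 10.73, 10.84 and 12.56 in NP, 4.24-fold higher (adjusted p = 0.000695). Serpinb1a, an inhibitor of neutrophil proteases, was 3.28-fold higher (adjusted p = 0.000581). On the other side Cstdc5, of the stefin family, had 4.58, 6.50 and 7.78 in NPK and 7.89, 9.33 and 11.85 in NP, 9.02-fold lower (adjusted p = 0.000562), and Serpinb6b was at least 2.3-fold lower. Of 35 secreted serine proteases 7 rose (20.0%) and 5 fell (14.3%), and 5 and 1 with the block. Prss32, a trypsin-like protease, had 8.89, 9.52 and 10.15 in NPK and 5.65, 6.09 and 7.94 in NP, 9.06-fold higher (adjusted p = 3e-05), and its second probe rose by 3.02. Prss22, a tryptase of epithelia, had 8.80, 9.83 and 11.07 in NPK and 7.42, 8.35 and 8.71 in NP, 2.89-fold higher (adjusted p = 0.000717). Htra1 was 2.21-fold higher (adjusted p = 0.000625), beside the stromal markers given above. Of 24 antimicrobial proteins 3 rose and 3 fell (12.5% each, and 0 and 1 genes with the block). Reg3g, an antibacterial lectin, had 7.97, 9.91 and 11.40 in NPK and 11.54, 12.58 and 13.35 in NP, 6.96-fold lower (adjusted p = 0.000276). Ltf, lactoferrin, lay at 15.55 to 15.74 on the NPK arrays, a span of 0.19 at the top of the scale where differences are compressed, and at 13.62 to 15.65 in NP.

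The secretory machinery itself stood near background. Of 37 genes of ER translocation, folding and glycosylation 7 rose and 8 fell (3 and 6 with the block), and of 30 genes of ER to Golgi transport 4 rose and 4 fell (2 and 3 with the block). Of 20 lysosomal genes 1 rose and 3 fell (0 and 3 with the block), and of 34 proteasome genes 4 rose and 5 fell (0 and 2 with the block). Kdelr3, a receptor that returns ER proteins from the Golgi, had 8.29, 8.97 and 9.84 in NPK and 6.83, 7.49 and 8.26 in NP, 3.00-fold higher (adjusted p = 0.000103). Srp14, of the signal recognition particle, had 10.05, 10.19 and 10.47 in NPK and 10.92, 11.09 and 11.67 in NP, 2.05-fold lower (adjusted p = 2.8e-05). Sec11c, a signal peptidase subunit, was 2.16-fold lower (adjusted p = 0.000562), and Npc2, the lysosomal cholesterol carrier, was 2.18-fold lower (adjusted p = 0.000331), with 8.71, 9.22 and 9.49 in NPK and 9.76, 10.06 and 11.06 in NP.

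In the list of p53 targets and senescence genes, 7 of 16 tested genes rose (43.8%, against 15.0% of all genes), 0 fell and the median was 0.69; 6 rose with the block and 6 without the 4 arrays rich in seminal vesicle transcripts. With median scaling 2 rose and 1 fell, at a list median of 0.27. Phlda3, a p53-induced repressor of AKT, had 10.86, 11.28 and 11.61 in NPK and 9.16, 9.90 and 10.64 in NP. It was 2.63-fold higher without overlap (1.39 ± 0.18, adjusted p = 2.33e-05), and its other probe rose by 1.46. Zmat3, an RNA-binding p53 target, had 9.58, 10.13 and 10.68 in NPK and 8.58, 9.27 and 9.38 in NP, 1.93-fold higher (adjusted p = 0.000364). Ccng1, cyclin G1, had 11.56, 12.02 and 12.22 in NPK and 10.93, 11.26 and 11.54 in NP, 1.65-fold higher (adjusted p = 0.000469), with other probes at 1.25 and 1.22. Mdm2, the ubiquitin ligase that limits p53, had 10.86, 11.25 and 11.68 in NPK and 10.53, 10.63 and 10.69 in NP, 1.57-fold higher (adjusted p = 0.000665). Cdkn1a, the cell cycle inhibitor p21, was 2.00-fold higher (adjusted p = 0.00155) and overlapped, at 11.11 to 12.46 in NPK and 10.55 to 11.38 in NP. The pro-apoptotic targets Pmaip1 and Bbc3, at 1.05 and -0.00, did not pass.

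In the list of heat shock proteins and the chaperonins, which fold other proteins, 0 of 21 tested genes rose and 10 fell (47.6%, against 18.2% of all genes), and 11 did not pass, with a median of -0.48; 8 fell with the block and 8 without the 4 arrays rich in seminal vesicle transcripts, where the median was -0.39. Hspe1, the co-chaperonin of mitochondria, had 8.68, 9.06 and 9.52 in NPK and 9.47, 9.74 and 10.51 in NP, 1.9-fold lower (adjusted p = 0.00102). Hspd1, its partner HSP60, had 10.43, 10.83 and 11.18 in NPK and 11.04, 11.44 and 11.93 in NP, 1.48-fold lower (adjusted p = 0.0124), with another probe of opposite direction. Cct8, a subunit of the chaperonin ring that folds actin and tubulin, had 10.57, 10.72 and 11.07 in NPK and 11.01, 11.34 and 11.82 in NP, 1.53-fold lower (adjusted p = 0.00125). Hsp90aa1 fell by 1.51 on the probe used and had 0.19 on the other. The stress-induced Hspa1a and Hspa1b, at 0.41 and 0.18, and the constitutive Hspa8, at -0.00, did not pass.

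**Figure D5:**
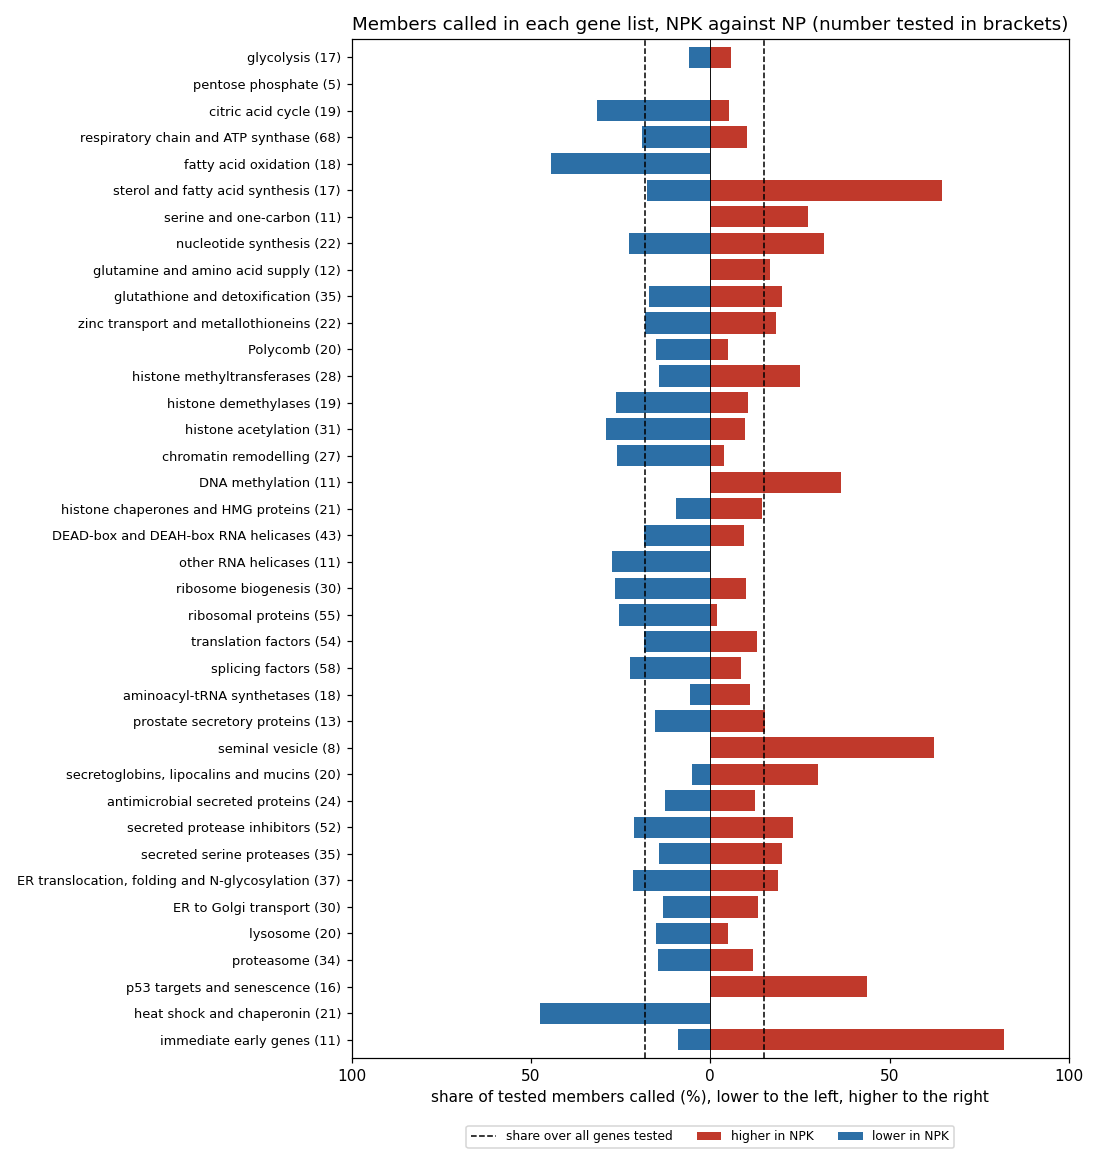
Share of the tested members called in each gene list with at least 5 tested members, cell type markers left out: higher in NPK (red, to the right) or lower (blue, to the left) against NP, with the number tested in brackets; dashed lines mark the shares over all 12570 genes, 15.0% higher and 18.2% lower. Sterol and fatty acid synthesis, seminal vesicle, immediate early genes and the p53 and senescence list extend farthest to the right of the lists drawn, and heat shock and fatty acid oxidation farthest to the left. The list labelled secreted protease inhibitors also holds members that are not secreted.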

How the data were processed

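RNA of mouse anterior prostate tumours was read on 21 Illumina bead arrays. Per the labels' protocols it was extracted with a magnetic bead kit, checked on a Bioanalyser, amplified and biotin labelled; BeadStudio and lumi appear in the submitters' processing notes without a stated role. The deposited table holds linear intensities per probe (45126 probes), background-subtracted by the authors, as values below 0 show, and not normalized. The authors' processed log2 values were used only as an alternative. No control probes or detection p-values were used here, so the planned correction was replaced by a normal-exponential model with background mean 0 and a noise SD estimated from negative intensities. Arrays were then offset by 16, quantile normalized and taken to log2, and probes above the level that noise exceeds with probability 0.01 on at least 3 arrays were kept (24217, of which 20192 had 1 symbol). The brightest probe stood for its gene (12570 genes). Of 45126 probes 34767 had 1 gene symbol, 18 several, and 10341 are not named here; 65 gene IDs had no RefSeq match and kept their symbol.

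Groups came from the titles. The test was limma (version 3.58.1, R 4.3.3; lmFit and eBayes), two-sided, with the 4 groups fitted jointly (16 residual degrees of freedom), Benjamini-Hochberg adjustment over all genes and a threshold of 0.05. The block fit used duplicateCorrelation by chip (consensus correlation 0.18). Named genes were the 10 largest rises and falls called in both fits with agreeing probes, and up to 4 members a list in its main direction and 2 in the other by adjusted p; Hadha, Fdps, Lss, Insig1, Mvk, Fasn, Srebf1, Mdm2, Cdkn1a, Hspd1, Jun and members named as not passing were added after their values were seen. Elovl6, Acly, Krt18, Cdh1 and Kdr were also named outside this rule. Members and lists were chosen with earlier results of these data known, and the pattern for cystatins, which also took an unrelated gene, and a pseudogene were corrected after values were seen. Of 1379 list entries 62 are not named in the probe table. Where the dimmer group was detected on 4 of its 8 arrays or fewer, the fold is a lower bound, from the brighter group's mean against the dimmer group's mean after raising each of its arrays to at least its lowest detected signal. The number of arrays limits the precision. The fit was tested on simulated data: 70% of 100 genes changed by 1 and 96% of 100 changed by 2 on the log2 scale were recovered among 12570, and 12 unchanged genes were called. The genes altered in the mouse models are not reported here.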

Additional observations from a re-analysis of the deposited data

Results flagged for a closer look

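Among 197 named genes, 394 groups of 7 or 8 samples were tested for a sample far from the rest of its group, and 27 were picked out in 26 genes; chance gives about 1 in 20. Each value below is a log2 normalized intensity. Of the NPK arrays, replicate 3 was high for Aldh18a1 (11.03), Srm (11.5), Rpl26 (13.97), Eef1b2 (12.96), Klk1 (7.48) and Ssr3 (13.26); this array also had the highest seminal vesicle mean, 14.60. Replicate 8 was low for Srebf2 (7.94, with the next array at 9.22). Replicate 7 was high for Echs1 (10.98), replicate 5 was high for Sc5d (7.4), replicate 6 was low for Txn1 (8.18) and replicate 4 was low for Hdac2 (10.35). Of the NP samples, replicate 6 was high for Dmbt1 (12.98, with the next sample at 9.32), Obp2a (5.86), Defb29 (7.46) and Timp1 (12.09), and low for Pkd2l1 (5.34, with the next at 9.02), Gpx3 (10.15), Pnliprp1 (4.94), Htra3 (6.49) and Tmprss6 (6.19). Replicate 7 was low for Tyms (8.61) and high for Ssr3 (12.47), replicate 8 was high for Tk1 (8.34), replicate 3 was low for Hdac3 (11.18) and Sbpl (4.49), and the averaged replicates 4 and 5 were low for Htra1 (7.14) and Zmat3 (8.58). The cause was not tested.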

How the results depend on the processing

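Genes called, with higher and lower in NPK, changed from 4180 (1888 and 2292) to 2361 (991 and 1370) with the chip as a random block, 1601 (733 and 868) with NPK 6 to 8 against NP 1 to 5, 2114 (970 and 1144) without the chip of NPK 1 to 5, 2765 (1233 and 1532) without the chip of NP 6 to 8, and 2147 (961 and 1186) with the seminal vesicle and skeletal muscle means as covariates; median scaling gave 6261 (763 and 5498). The settings that leave chips out also hold fewer samples, and the part of this in their counts was not tested. The other settings, including the authors' values (4014), other offsets, filters and probe rules, and no background model, gave 3242 to 5125 calls, and 2866 without the 4 NPK arrays richest in seminal vesicle transcripts, a setting added after the data were seen. Median scaling moved the centre of all genes to -0.38, so 18 named genes with small rises crossed 0 while staying above that centre: Dlst (-0.13), Atp5c1 (-0.10), Setd1a (-0.0272), Smyd2 (-0.0756), Jmjd6 (-0.0847), Kat2a (-0.0373), Hdac4 (-0.0326), Uhrf2 (-0.00126), Nap1l1 (-0.11), Ddx28 (-0.014), Wdr43 (-0.0043), Gar1 (-0.0522), Kars (-0.0886), Sar1a (-0.00795), Mcfd2 (-0.030), Lamp1 (-0.0739), Psmb4 (-0.11) and Psmb7 (-0.0783). The mean of all probes reversed Tyms (-0.066), Slc30a7 (-0.0768) and Kmt5a (-0.0552), leaving out the chip of NP 1 to 5 reversed Mtf2 (0.0677), and the covariates reversed Spink1 (-0.0712), Svs1 (-0.17) and Svs6 (-0.45); Svs1 and Svs6 are themselves part of the seminal vesicle mean, so that reversal follows from the covariate, and the cause of the others was not tested. Of 197 named genes 155 kept their call with the chip block, but the choice of genes fixed part of this count. The largest rises and falls were named only if called with the block, and list members were picked by adjusted p. The count is therefore no check on the calls. Among all 4180 genes called, 2361 kept their call. Replicate numbers did not pair the samples (same-number correlations -0.14 to 0.10, 0 of 8 best with their own number); a replicate block on the 16 arrays, with NP 4 and 5 as 2 samples, gave 3988 calls. Slide and scan date as a block were not run, since the files gave nothing beyond the chip. Signal near background limits the dim genes, above all on the NPK arrays, which detected fewer probes.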
